A study of Mus musculus with 16 samples.

Results

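The SLC25 family of mitochondrial carriers was followed through 6 treatment groups of differentiated mouse brown adipocytes. Its members were taken by symbol, as every row of the gene count table named Slc25a followed by a number, without Slc25a1, Slc25a20 and Slc25a34. This gave 44 of 20295 rows, and 41 of the 44 had enough counts to be tested among 12786 genes. RNA-seq was run on 16 samples of an immortalized brown preadipocyte line at day 7 of differentiation. Cells received vehicle (DMSO), 5 µM triacsin C (TC), which blocks the long-chain acyl-CoA synthetases, or 50 µM etomoxir (ETO), which blocks CPT1, for 1 h, and were then left without or given SR-3420 for 3 h. SR-3420 is a ligand of ABHD5 that releases this co-activator to the lipase ATGL and so starts lipolysis. The groups were Vehicle (n = 2), SR-3420 (n = 2), TC (n = 3), TC+SR-3420 (n = 3), ETO (n = 3) and ETO+SR-3420 (n = 3). The labels give SR-3420 at 10 µM, while the study's figure legends state a higher dose.

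SLC25 proteins sit almost entirely in the inner mitochondrial membrane, where each moves a small set of metabolites between cytosol and matrix. They carry ADP, ATP and phosphate for oxidative phosphorylation, nucleotides and cofactors that the matrix cannot make, amino and keto acids of the shuttles and of catabolism, and iron for haem and iron-sulphur clusters. Brown adipocytes are rich in mitochondria, and the uncoupling proteins, UCP1 among them, belong to the same structural family, in part under gene names of their own.

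The cells are a line immortalized with SV40 large T antigen and differentiated in culture, so all groups share this background, and p-values measure the spread between these samples. The study describes its replicates as independent experiments, and the labels do not say more. Calls below are from a fit on group means. A fit with replicate numbers as a block (replicate block) called more carriers, and more of all genes, in most comparisons. The exceptions for carriers were ETO against Vehicle and the response with ETO minus that without inhibitor, and the counts stand at the end. Total counts were 14032494 and 10097582 in Vehicle, 19156037 and 15667121 in SR-3420, 9452861, 15818919 and 13164376 in TC, 16265789, 12043744 and 10659704 in TC+SR-3420, 14993463, 11813662 and 10993504 in ETO and 25670624, 13173278 and 16512525 in ETO+SR-3420. Adipocyte genes were high, with Fabp4, a fatty acid binding protein, at 3026 to 9223 CPM (counts scaled by library size after TMM normalization) and the hormone Adipoq at 806 to 3396 CPM. Ucp1, the defining gene of brown fat, was near 0 at 0.461 to 3.66 CPM in all 16 samples, and Dio2 reached at most 0.127 CPM. Cidea was at 8.29 to 35.3 CPM and Prdm16 at 5.99 to 40.1 CPM. The cells therefore read as adipocytes with very little Ucp1 RNA. Preadipocyte or fibroblast markers were also present in all 16 samples, with Col1a1 at 612 to 3667 CPM and Pdgfrb at 163 to 455 CPM. In the same list Cd34 was at 1.74 to 6.19 CPM and Dcn at 0.922 to 2.81 CPM. The share of undifferentiated cells was not tested. Markers of endothelium and macrophages were scarce, with the most abundant of them, Cd68, at 3.23 to 16.5 CPM and the macrophage gene Emr1 at no more than 0.215 CPM.

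Per kilobase of counted length, the ADP/ATP carrier Slc25a4 was the most abundant member in Vehicle at 605 and 552 CPM per kb, followed by the phosphate carrier Slc25a3 at 567 and 463 and the second ADP/ATP carrier, Slc25a5, at 357 and 291. Slc25a4 and Slc25a3 overlap between the Vehicle samples on this scale, and Slc25a5 lies below both. Next in Vehicle came the dicarboxylate carrier Slc25a10 at 247 and 145 CPM per kb and the glutathione carrier Slc25a39 at 189 and 123, which overlap each other. Levels spanned several orders of magnitude, down to the glutamate carrier Slc25a18 at 0.374 and 0.472 CPM per kb and Slc25a48 at 0.342 and 0.123. Slc25a31, the germ cell ADP/ATP carrier, had a count of 0 in all 16 samples. Slc25a41 had at most 6 counts and Slc25a54 at most 2 in any sample, and these 3 members were not tested.

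**Figure D1:**
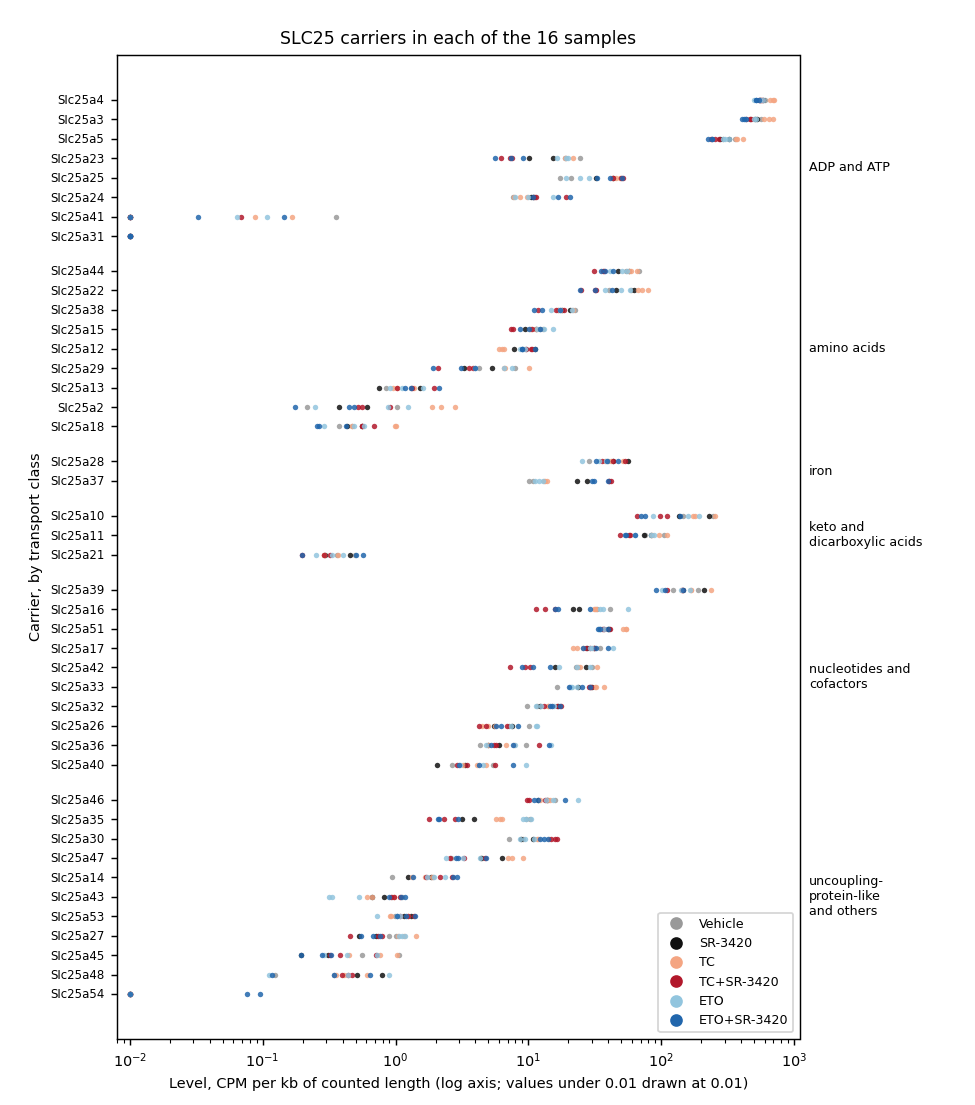
Level of 43 of the 44 carriers in CPM per kb of counted length on a log axis, with a point for each of the 16 samples coloured by group and carriers arranged by transport class. Within each sample Slc25a4, Slc25a3 and Slc25a5 lie above the other members drawn, and Slc25a31 has no counts.

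The 44 members together took 0.495 and 0.437% of all counts in Vehicle and 0.427 and 0.414% in SR-3420. The share was 0.483, 0.533 and 0.507% in TC and 0.366, 0.366 and 0.347% in TC+SR-3420, and 0.46, 0.454 and 0.408% in ETO and 0.37, 0.344 and 0.361% in ETO+SR-3420. On this scale every sample with SR-3420 lay below every sample without it in each of the 3 backgrounds. As summed CPM after TMM scaling, the members stood at 5082 and 4072 in Vehicle and 4818 and 4119.9 in SR-3420, and at 4539, 4234 and 3713 in ETO and 3813, 3305 and 3508 in ETO+SR-3420. On that scale the groups overlap in both of these backgrounds. With TC they do not, at 4905, 5761 and 5059 summed CPM in TC and 3815, 3719 and 3467 in TC+SR-3420. Slc25a3, Slc25a4 and Slc25a5 alone made up 37.6 to 45.3% of the members' counts per sample. In bulk RNA, fewer cells of a type and less RNA per cell cannot be told apart.

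The members lie on 18 chromosomes, and 4 pairs are neighbours in mm9: Slc25a41 and Slc25a23 (2057 bases apart), Slc25a54 and Slc25a24 (6567), Slc25a29 and Slc25a47 (15253), and Slc25a43 and Slc25a5 (18345). The counting is not stated to use strand, so reads of overlapping genes cannot be told apart. Slc25a35 shares 31.3% of its annotated exon bases with Rangrf on the other strand, Slc25a25 shares 8.18% with Naif1, and Slc25a26 shares 6.27% with Lrig1. Slc25a4 and Slc25a5, close paralogs, share 0% of their stretches of 50 bases with the annotated transcripts of any other protein-coding gene. Stretches shared with pseudogenes were not tested, so this value does not show that their reads map uniquely.

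SR-3420 without inhibitor asks how activated lipolysis alone moved the carriers. Slc25a37, mitoferrin-1, the inner membrane importer of iron (mm9 chr14:69859908-69903160, minus strand, NM_026331), stood at 42.4 and 45.3 CPM in Vehicle and 96.2 and 115 CPM in SR-3420. Its SR-3420 samples were well above the Vehicle samples. Slc25a25, a calcium-regulated carrier of ATP-Mg and phosphate (mm9 chr2:32270007-32306990, minus strand, NM_146118), was at 62.1 and 50.7 CPM in Vehicle and 128 and 95.2 CPM with SR-3420. The groups do not overlap for either gene. In the other direction Slc25a35, a carrier whose substrate is not settled (mm9 chr11:68781633-68786017, plus strand, NM_028048), was at 17.2 and 18.6 CPM in Vehicle against 5.72 and 7.05 CPM in SR-3420, far below both controls.

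Tested with edgeR's quasi-likelihood F-test across all 12786 genes, 2 of 41 carriers were higher and 2 lower at an adjusted p under 0.05, where 4.75% of all genes were higher and 2.79% lower. The log2 fold change was 1.27 ± 0.15 (SE), adjusted p = 0.000308 for Slc25a37, 0.98 ± 0.23 (SE), adjusted p = 0.019 for Slc25a25 and -1.49 ± 0.23 (SE), adjusted p = 0.00171 for Slc25a35. The members' median log2 fold change was -0.11 and that of all tested genes -0.00. An unadjusted p under 0.05 was found for 9 members, beside 2788 of all 12786 genes. The Slc25a25 call was lost at adjusted p = 0.064 without Vehicle replicate 2, 0.161 without Vehicle replicate 3 and 0.168 without SR-3420 replicate 1. The count of called carriers was 2 without Vehicle replicate 2, without Vehicle replicate 3 or without SR-3420 replicate 1. With only the 4 samples of these groups in the model edgeR called 0 carriers, with 7 at an unadjusted p under 0.05 and an adjusted p of 0.0988 for Slc25a37. DESeq2's Wald test called 5.

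The carriers of oxidative phosphorylation gave values close to Vehicle. Slc25a3 was at 857 and 701 CPM in Vehicle and 797 and 771 CPM in SR-3420, Slc25a4 at 667 and 609 against 616 and 646 CPM, and Slc25a5 at 441 and 360.1 against 399.8 and 345 CPM. The SR-3420 values lay within or beside the Vehicle range for each. Their log2 fold changes by edgeR had 95% intervals of -0.30 to 0.32, -0.28 to 0.25 and -0.41 to 0.19, and the sign of each turned under some alternatives. Among transporters outside the symbol rule, 1 of 10 was higher and 0 lower. That was Slc25a34, a family member of unsettled substrate, at 17.8 and 10.1 CPM in Vehicle and 59.96 and 53.3 CPM in SR-3420 (log2 fold change 2.02 ± 0.39 (SE), adjusted p = 0.00668, and adjusted p = 0.0859 without Vehicle replicate 3). The summed CPM of 12 brown adipocyte markers, led by Fabp4, was 14334 and 12853 in Vehicle and 10582 and 9759 in SR-3420, and 2 of the 11 tested were lower and 0 higher. Averaged over all samples, Fabp4, Adipoq, Cidec and Plin1 were at 5831, 2065, 1388 and 1203 CPM, and Pparg, the next, at 187 CPM. The sum, here and below, therefore mainly follows these abundant genes. Preadipocyte or fibroblast markers, led by Col1a1, summed to 1882 and 1624 CPM and 4046 and 2939 CPM, with 0 of 8 called by edgeR and 3 at an unadjusted p under 0.05. Their part in the result for the carriers was not tested.

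Slc25a25 is shown with its upstream sequence because it rose in 3 of the comparisons described here and fell in none. RefSeq (GRCm38.p6) promoter windows, from 250 bases before to 50 after each start, were matched for 33 of the 44 members. Slc25a25 has 3 starts there, and the counts do not tell which is used. The window at chr2:32424017-32424316 (minus strand) holds the cAMP response element letters TGACGTCA, shown in capitals.
Slc25a25: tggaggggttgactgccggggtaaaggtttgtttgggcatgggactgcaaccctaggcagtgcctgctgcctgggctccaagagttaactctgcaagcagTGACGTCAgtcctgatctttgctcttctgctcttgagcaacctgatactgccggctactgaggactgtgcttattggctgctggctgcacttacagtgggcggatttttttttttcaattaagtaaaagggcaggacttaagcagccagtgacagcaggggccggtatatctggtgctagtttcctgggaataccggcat
These letters, searched on both strands, occur in 1.79% of all 32851 windows and in 2 of the 43 member windows, those of Slc25a25 and Slc25a36. The amino acid response letters TGATGNAAT (0.965% of all windows) and the estrogen-related receptor letters TCAAGGTCA (0.423%) occur in 0 of the 43 member windows. Members without a matched window included Slc25a2, Slc25a26, Slc25a27, Slc25a32, Slc25a35, Slc25a37, Slc25a41, Slc25a44, Slc25a46 and Slc25a51.

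**Figure D2:**
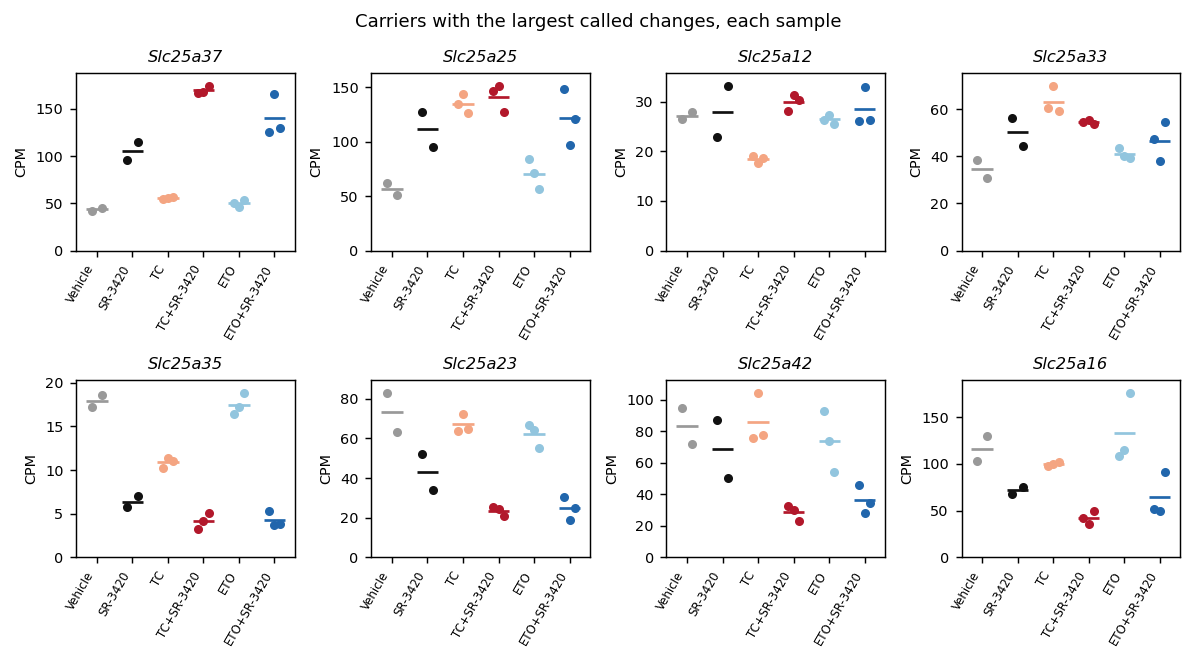
CPM of 8 carriers in each sample, with points for samples, a line for the group mean and an axis from 0 in each panel. Slc25a37 is higher and Slc25a35 lower in every SR-3420 group than in its own control, and Slc25a25 is also high in TC alone.

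With acyl-CoA synthesis blocked, SR-3420 lowered many carriers and raised few. Mitoferrin-1 again rose, with Slc25a37 at 54.7, 55.7 and 57.1 CPM in TC and 167, 168 and 174 CPM in TC+SR-3420. Slc25a12, the aspartate/glutamate carrier of the malate-aspartate shuttle (mm9 chr2:71112352-71205611, minus strand, NM_172436), was at 19.0, 17.6 and 18.6 CPM in TC and 28.1, 31.4 and 30.4 CPM in TC+SR-3420. Both genes separate the groups without overlap. For Slc25a12 the TC+SR-3420 values lie close to Vehicle (26.5 and 27.9 CPM) and between those of SR-3420 (22.9 and 33.1 CPM). Slc25a42, which carries coenzyme A into the matrix (mm9 chr8:72708239-72736180, minus strand, NM_001007570), was at 75.4, 104 and 77.3 CPM in TC and 32.7, 29.9 and 23.0 CPM in TC+SR-3420. Slc25a23, another calcium-regulated ATP-Mg/phosphate carrier (mm9 chr17:57183134-57199286, minus strand, NM_025877), was at 63.9, 72.5 and 64.7 against 25.2, 24.6 and 20.8 CPM, and Slc25a35 at 10.2, 11.3 and 11.1 against 3.20, 4.13 and 5.07 CPM. All 3 TC+SR-3420 samples lay below all 3 TC samples for each of these genes.

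By edgeR's test, 2 of 41 carriers rose and 17 fell, where 17.3% of all genes rose and 19.7% fell. The members' median log2 fold change was -0.29 against 0.02 over all tested genes, and DESeq2's test called 19. The log2 fold change was 1.60 ± 0.12 (SE), adjusted p = 2.28e-06 for Slc25a37 and 0.70 ± 0.15 (SE), adjusted p = 0.00211 for Slc25a12. Falls were -1.58 ± 0.27 (SE), adjusted p = 0.000522 for Slc25a42, -1.51 ± 0.20 (SE), adjusted p = 8.1e-05 for Slc25a23 and -1.41 ± 0.20 (SE), adjusted p = 0.000121 for Slc25a35. These 5 calls passed whichever 1 of the 6 libraries was left out. Of the 19 calls, 14 passed whichever was left out and 5 were lost for at least 1 library, namely Slc25a2, Slc25a4, Slc25a10, Slc25a27 and Slc25a29. The Slc25a27 call (UCP4) was lost at adjusted p = 0.0624 without TC replicate 2 and 0.0551 without TC+SR-3420 replicate 3, and the call of the basic amino acid carrier Slc25a29 at 0.0602 without TC replicate 2 and 0.0536 without TC+SR-3420 replicate 3.

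Falls were called in each class but iron, which has only 2 tested members. Of all genes 19.7% fell, and differences between the classes were not tested. In the ADP and ATP class 4 of 6 tested carriers fell, among them the abundant ones. Slc25a3 was at 898, 1051 and 979 CPM in TC and 718, 711 and 663 CPM in TC+SR-3420, Slc25a5 at 449.6, 515 and 457 against 336, 315 and 296 CPM and Slc25a4 at 723, 773 and 779 against 619, 631 and 606 CPM. The groups do not overlap for any of the 3, though the steps are small beside those of Slc25a42 or Slc25a23. For each, every TC sample also lay above both Vehicle samples, a step not called by edgeR. The TC+SR-3420 samples overlap Vehicle for Slc25a3 (857 and 701 CPM) and Slc25a4 (667 and 609 CPM). Those of Slc25a5 lie below Vehicle (441 and 360.1 CPM). Log2 fold changes were -0.49 ± 0.12 (SE), adjusted p = 0.00538, -0.59 ± 0.11 (SE), adjusted p = 0.00141 and, for Slc25a4, -0.29 ± 0.10 (SE), adjusted p = 0.0325. The Slc25a4 call was lost at adjusted p = 0.0897 without TC replicate 2, 0.0954 without TC replicate 3, 0.0765 without TC+SR-3420 replicate 1, 0.0814 without TC+SR-3420 replicate 2 and 0.0946 without TC+SR-3420 replicate 3, and at 0.147 with no filter on low counts.

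**Figure D3:**
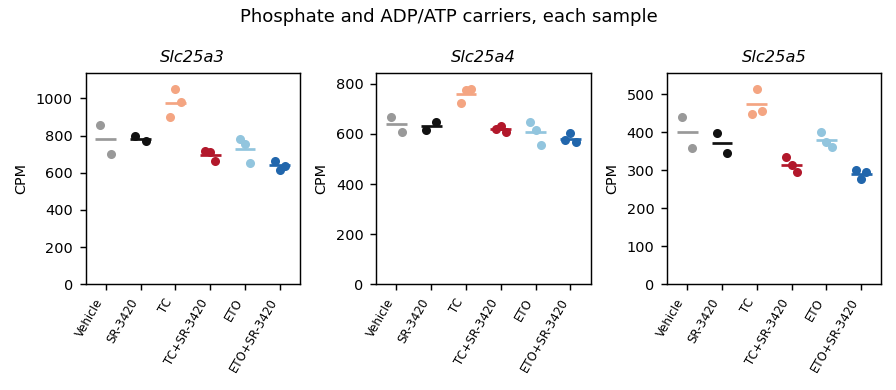
CPM of the phosphate carrier Slc25a3 and the ADP/ATP carriers Slc25a4 and Slc25a5 in each sample, with a line for the group mean and axes from 0. The 3 TC+SR-3420 samples lie below the 3 TC samples in each panel.

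Among amino acid carriers 4 of 9 fell and 1 rose, with a class median of -0.49 on the log2 scale. The glutamate carrier Slc25a22 went from 199, 222 and 187 CPM in TC to 89.8, 88.5 and 68.9 CPM in TC+SR-3420 (log2 fold change -1.30 ± 0.23 (SE), adjusted p = 0.000665). Slc25a44, which takes branched-chain amino acids into mitochondria and is known in brown fat for their oxidation, went from 211, 231 and 202 to 129, 131 and 109.9 CPM (-0.80 ± 0.14 (SE), adjusted p = 0.000865). Of the 3 keto and dicarboxylic acid carriers 2 fell, with a median of -0.83. Slc25a11, the oxoglutarate carrier of the malate-aspartate shuttle, went from 158, 207 and 180.4 to 107, 109 and 91.4 CPM (-0.83 ± 0.16 (SE), adjusted p = 0.00158), so this shuttle partner of Slc25a12 moved the opposite way. Slc25a10 went from 723, 1016 and 699 to 444, 389 and 265 CPM (-1.15 ± 0.35 (SE), adjusted p = 0.0211), and its call was lost at adjusted p = 0.0864 without TC replicate 2, 0.0506 without TC+SR-3420 replicate 2 and 0.0852 without TC+SR-3420 replicate 3. Nucleotide and cofactor carriers fell in 4 of 11 cases with a median of -0.21, and the uncoupling-protein-like and other carriers in 3 of 10 with a median of -0.19. Slc25a44, Slc25a11 and Slc25a10 were named after their values were seen.

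The mitochondrial pyruvate carrier also fell. Among transporters outside the symbol rule 8 of 10 fell and 0 rose, with a median of -1.04. Mpc1 went from 42.4, 45.3 and 45.0 CPM in TC to 16.5, 17.2 and 19.0 CPM in TC+SR-3420 (log2 fold change -1.33 ± 0.13 (SE), adjusted p = 1.05e-05), and Slc25a1, the citrate carrier, from 729.9, 924 and 732 to 352, 348 and 264 CPM (-1.31 ± 0.24 (SE), adjusted p = 0.000912). Ucp3 was at -1.63 (adjusted p = 0.00219). Of 15 genes of the TOM and TIM22 import route, which brings carriers to the inner membrane, 4 fell and 0 rose, with Tomm7 at -0.74 and Tomm6 at -0.66. Of all genes 19.7% fell and 17.3% rose in this comparison, and the difference of the lists from all genes was not tested. Of the 3 outer membrane channels Vdac1, Vdac2 and Vdac3, 0 were called in either direction. For the VDAC channels 0 had an unadjusted p under 0.05.

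Adipocyte markers moved in the same samples. The summed CPM of 12 brown adipocyte markers, led by Fabp4, was 14919, 16151 and 15656 in TC and 5671, 5794 and 6047 in TC+SR-3420, and 6 of the 11 tested fell and 1 rose. Elovl3 and Cox8b were lower in every TC+SR-3420 sample than in every TC sample. Prdm16 stood at 8.28, 9.44 and 5.99 CPM in TC and 16.01, 13.999 and 9.38 CPM in TC+SR-3420. Ppargc1a was at 22.3, 24.1 and 28.975 against 23.9, 23.1 and 25.6 CPM. Ucp1 was at 0.968, 2.598 and 1.97 against 2.497, 3.46 and 3.66 CPM. The groups overlap for Prdm16, Ppargc1a, Ucp1, Cidea and Pparg. Adipoq changed by -1.68 ± 0.21 (SE), adjusted p = 6.23e-05. The summed CPM of 8 preadipocyte or fibroblast markers, led by Col1a1, was 2611, 2301 and 1987 in TC and 4579, 3842 and 3052 in TC+SR-3420, with 3 of 8 higher. The macrophage list, led by Cd68, summed to 16.2, 17.9 and 16.9 CPM in TC and 8.39, 8.77 and 7.79 CPM in TC+SR-3420, with Emr1 and Ptprc near 0. The 4 endothelial markers summed to 0.86, 1.85 and 1.97 CPM in TC and 2.63, 3.46 and 2.16 CPM in TC+SR-3420, with Pecam1, Cdh5 and Tek near 0. The only one tested, Kdr, was higher (0.96 ± 0.31 (SE), adjusted p = 0.0246), a call lost at adjusted p = 0.0859 without TC replicate 1, 0.106 without TC replicate 2, 0.0555 without TC+SR-3420 replicate 1 and 0.056 without TC+SR-3420 replicate 2. Their part in the result for the carriers was not tested.

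With CPT1 blocked by etomoxir, SR-3420 again raised Slc25a37 and Slc25a25 and lowered Slc25a35. Slc25a37 was at 50.4, 46.4 and 53.2 CPM in ETO and 126, 165 and 129.8 CPM in ETO+SR-3420, and Slc25a25 at 84.2, 71.7 and 56.7 against 149, 96.8 and 121 CPM. Slc25a35 was at 16.4, 17.2 and 18.8 CPM in ETO and 5.34, 3.72 and 3.83 CPM in ETO+SR-3420, and Slc25a23 at 67.0, 64.1 and 55.0 against 30.5, 19.0 and 25.1 CPM. Slc25a16, a carrier linked to coenzyme A transport (mm9 chr10:62383381-62409242, plus strand, NM_175194), was at 108, 115 and 176 CPM in ETO and 52.2, 50.0 and 91.3 CPM in ETO+SR-3420. In each of these 5 genes the groups do not overlap, though ETO replicate 3 and ETO+SR-3420 replicate 3 were the highest of their groups for Slc25a16.

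By edgeR's test 3 of 41 carriers rose and 7 fell, against 12.5% and 12.8% of all genes. The median log2 fold change was -0.25 for the members and 0.01 for all tested genes, and DESeq2's test called 13. The log2 fold change was 1.49 ± 0.12 (SE), adjusted p = 4.66e-06 for Slc25a37 and 0.79 ± 0.18 (SE), adjusted p = 0.00712 for Slc25a25. It was -2.01 ± 0.19 (SE), adjusted p = 1.59e-05 for Slc25a35, -1.32 ± 0.19 (SE), adjusted p = 0.000371 for Slc25a23 and -1.04 ± 0.24 (SE), adjusted p = 0.00616 for Slc25a16. The third gene to rise was Slc25a43, named here after its values were seen, an orphan carrier at 0.658, 0.395 and 0.414 CPM in ETO and 1.36, 1.46 and 1.12 CPM in ETO+SR-3420 (1.39 ± 0.29 (SE), adjusted p = 0.00384), which rests on 5 to 34 counts per sample. With only these 6 samples in the model 4 carriers were called, and the adjusted p of both Slc25a25 and Slc25a16 was 0.0727.

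Of the 11 nucleotide and cofactor carriers 3 fell, Slc25a42 and Slc25a16 among them, with a class median of -0.21 on the log2 scale. The 9 amino acid carriers had a median of -0.38 with 0 called by edgeR and 3 at an unadjusted p under 0.05. The 3 keto and dicarboxylic acid carriers had a median of -0.47 with 0 called and 1 at an unadjusted p under 0.05. Of all genes 12.8% fell, and 4758 of 12786 had an unadjusted p under 0.05. Differences between the classes were not tested. Slc25a42 was at 92.9, 73.9 and 53.9 CPM in ETO and 46.0, 28.3 and 34.4 CPM in ETO+SR-3420 (log2 fold change -1.02 ± 0.26 (SE), adjusted p = 0.0122), a call lost at adjusted p = 0.0525 without ETO replicate 1 and 0.0648 without ETO+SR-3420 replicate 2. Slc25a5 was at 401, 376 and 362 CPM in ETO and 300.3, 277 and 296 CPM in ETO+SR-3420 (-0.38 ± 0.11 (SE), adjusted p = 0.0265), and its call was lost at adjusted p = 0.0834 without ETO replicate 1, 0.0661 without ETO replicate 2 and 0.093 without ETO+SR-3420 replicate 2, and at 0.117 with only these 2 groups in the model. Slc25a3 was at 781, 755 and 651 against 663, 617 and 637 CPM, and Slc25a4 at 649, 615 and 554 against 574, 602 and 567 CPM. These groups overlap for both genes and neither passed the test (adjusted p = 0.262 and 0.701).

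Outside the symbol rule 3 of 10 transporters fell and 0 rose, beside 12.8% and 12.5% of all genes. These 3 were Mpc1 (-0.82 ± 0.13 (SE), adjusted p = 0.00048), Mpc2 (-0.65, adjusted p = 0.00466) and Slc25a1 (-1.05, adjusted p = 0.00596). The 15 import genes and the 3 VDAC channels gave 0 calls by edgeR, with 3 import genes and 0 channels at an unadjusted p under 0.05. The summed CPM of the brown adipocyte markers was 14009, 12876 and 13905 in ETO and 7068, 5290.3 and 8842 in ETO+SR-3420, with 6 of 11 lower. Preadipocyte or fibroblast markers summed to 2272, 1642 and 1097 CPM in ETO and 4750.4, 3461 and 2333 CPM in ETO+SR-3420, with 5 of 8 higher. Endothelial markers summed to 1.32, 2.21 and 0.994 CPM in ETO and 3.13, 3.58 and 2.94 CPM in ETO+SR-3420, and Kdr, the only one tested, was higher (1.28 ± 0.30 (SE), adjusted p = 0.00681). Their part in the carrier changes was not tested.

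**Figure D4:**
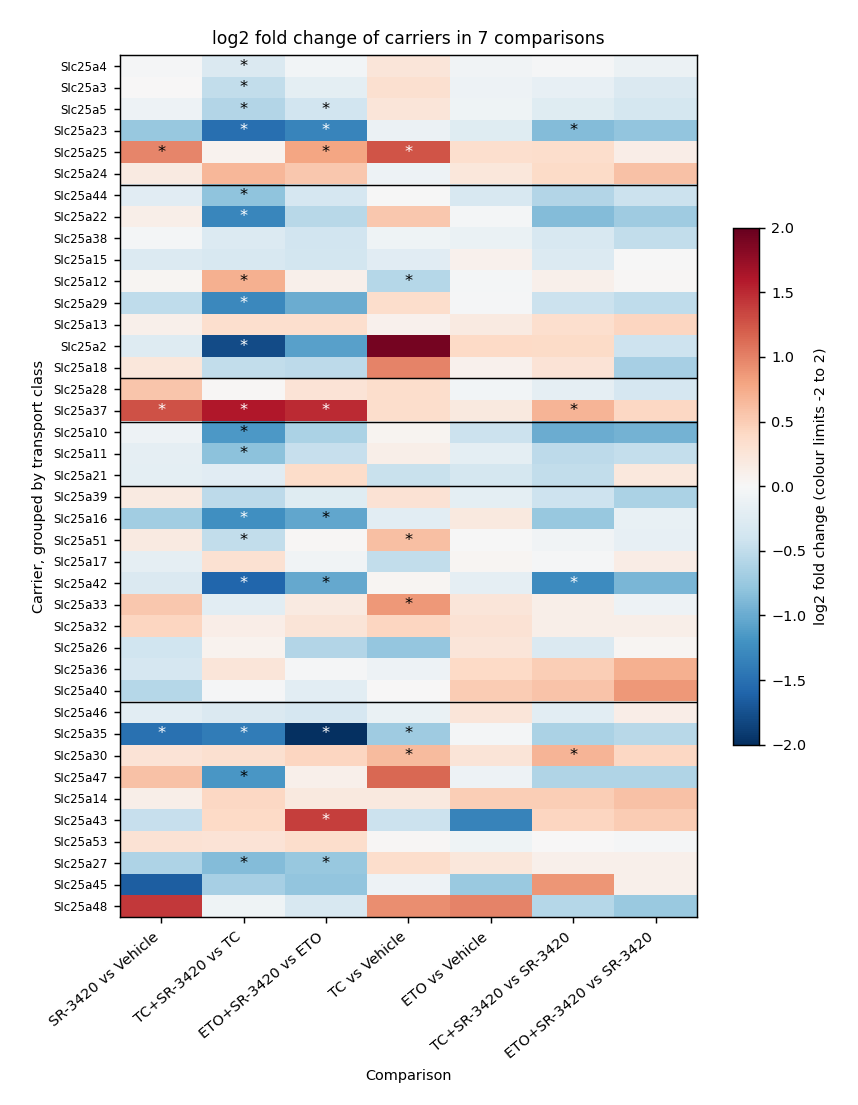
Log2 fold change of 40 of the 41 tested carriers (rows, by transport class) in 7 comparisons (columns), on a colour scale limited to -2 and 2, with a star where edgeR's adjusted p was under 0.05. Stars are densest in the column of TC+SR-3420 against TC, where 16 of 18 mark falls, and the columns for ETO against Vehicle and ETO+SR-3420 against SR-3420 hold none.

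Across the 3 backgrounds, Slc25a37 rose in all 3, and Slc25a35 fell in all 3. Slc25a5, Slc25a16, Slc25a23, Slc25a27 and Slc25a42 fell with SR-3420 in both inhibitor backgrounds, and with etomoxir the Slc25a27 call was lost at adjusted p = 0.0564 without ETO replicate 1, 0.0948 without ETO replicate 2, 0.0577 without ETO replicate 3, 0.103 without ETO+SR-3420 replicate 1 and 0.0571 without ETO+SR-3420 replicate 3. In SR-3420 against Vehicle, Slc25a23 was at 82.8 and 63.4 against 51.9 and 34.2 CPM (adjusted p = 0.0677), Slc25a16 at 103 and 129.8 against 67.9 and 75.5 CPM (adjusted p = 0.173) and Slc25a42 at 94.98 and 72.1 against 86.9 and 50.4 CPM (adjusted p = 0.666). The SR-3420 samples of Slc25a23 and Slc25a16 lay below both Vehicle samples, while those of Slc25a42 overlapped. With the replicate block edgeR's adjusted p was 0.00723 for Slc25a23, 0.0154 for Slc25a16 and 0.221 for Slc25a42.

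Triacsin C alone asks what blocked acyl-CoA synthesis did without SR-3420. Slc25a25 was at 135, 144 and 126 CPM in TC, more than both Vehicle samples (62.1 and 50.7 CPM), and close to the TC+SR-3420 samples (147, 151 and 127 CPM). Slc25a33, a pyrimidine nucleotide carrier (mm9 chr4:149118145-149148376, minus strand, NM_027460), was at 38.3 and 30.8 CPM in Vehicle and 60.3, 69.6 and 59.3 CPM in TC. Slc25a30, the kidney mitochondrial carrier (mm9 chr14:76161806-76186844, minus strand, NM_026232), was at 12.1 and 15.6 against 24.5, 19.8 and 20.2 CPM. For these 3 genes every TC sample was above every Vehicle sample. Slc25a12 was lower at 19.0, 17.6 and 18.6 CPM in TC than in Vehicle (26.5 and 27.9 CPM), and Slc25a35 at 10.2, 11.3 and 11.1 against 17.2 and 18.6 CPM, again without overlap.

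By edgeR's test 4 of 41 carriers rose and 2 fell with TC, where 4.77% of all genes rose and 6.94% fell, and the members' median log2 fold change was 0.08 against 0.07 over all genes. DESeq2's test called 11. The log2 fold change was 1.26 ± 0.21 (SE), adjusted p = 0.00164 for Slc25a25, 0.87 ± 0.17 (SE), adjusted p = 0.00411 for Slc25a33 and 0.63 ± 0.17 (SE), adjusted p = 0.0305 for Slc25a30. The NAD+ carrier Slc25a51, named for this comparison after its values were seen, also rose from 154 and 160.2 to 243, 229 and 240.4 CPM (0.60 ± 0.11 (SE), adjusted p = 0.00352). Falls were -0.56 ± 0.16 (SE), adjusted p = 0.0359 for Slc25a12 and -0.72 ± 0.20 (SE), adjusted p = 0.0348 for Slc25a35. The Slc25a25 and Slc25a51 calls passed in each fit that left out 1 library. The Slc25a33 call was lost at adjusted p = 0.0797 without Vehicle replicate 3, and that of Slc25a30 at 0.239 without Vehicle replicate 2, 0.106 without TC replicate 1 and 0.0541 without TC replicate 3. The Slc25a30 call was also lost with no filter on low counts (adjusted p = 0.12) and with only these 2 groups in the model (0.122). The call was lost for Slc25a12 at adjusted p = 0.112 without Vehicle replicate 2, 0.204 without Vehicle replicate 3, 0.0754 without TC replicate 1, 0.112 without TC replicate 2 and 0.0902 without TC replicate 3, and for Slc25a35 at 0.103 without Vehicle replicate 2, 0.208 without Vehicle replicate 3, 0.106 without TC replicate 1, 0.0789 without TC replicate 2 and 0.0883 without TC replicate 3. The count of called carriers was 3 without Vehicle replicate 2, without TC replicate 1 or without TC replicate 3.

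Slc25a33 and its paralog Slc25a36 are shown together because both carry pyrimidine nucleotides and gave different values under TC, with Slc25a36 at 13.3 and 29.6 CPM in Vehicle and 20.6, 15.2 and 24.0 CPM in TC (log2 fold change -0.10 ± 0.53 (SE), adjusted p = 0.94). Their RefSeq windows (GRCm38.p6, chr4:149774218-149774517 and chr9:97110992-97111291, both minus strand) hold the E-box letters CACGTG, in capitals, and that of Slc25a36 also TGACGTCA, in capitals and not overlapping the E-box.
Slc25a33: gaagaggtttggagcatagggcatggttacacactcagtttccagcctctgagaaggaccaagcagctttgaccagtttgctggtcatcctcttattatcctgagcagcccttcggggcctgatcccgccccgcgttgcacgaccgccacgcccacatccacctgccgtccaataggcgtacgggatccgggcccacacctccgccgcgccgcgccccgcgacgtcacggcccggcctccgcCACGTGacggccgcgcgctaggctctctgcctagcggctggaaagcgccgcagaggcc
Slc25a36: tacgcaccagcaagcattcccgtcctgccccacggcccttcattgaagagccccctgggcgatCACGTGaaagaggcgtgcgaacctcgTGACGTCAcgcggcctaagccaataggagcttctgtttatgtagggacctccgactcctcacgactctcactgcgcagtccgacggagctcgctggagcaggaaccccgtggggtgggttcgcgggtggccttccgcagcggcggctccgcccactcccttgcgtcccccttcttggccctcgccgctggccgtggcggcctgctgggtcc
CACGTG occurs in 7.15% of all 32851 windows and in 7 of the 43 member windows, which belong to 6 of the 33 matched members. The difference between the paralogs in their response to TC was not tested.

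With TC alone, 3 of 11 tested adipocyte markers fell, Prdm16 (-2.14), Pparg (-1.48) and Ppargc1a (-1.04, a call lost at adjusted p = 0.084 without Vehicle replicate 2, 0.114 without Vehicle replicate 3, 0.0734 without TC replicate 1 and 0.0678 without TC replicate 2), while their summed CPM was 14334 and 12853 in Vehicle and 14919, 16151 and 15656 in TC. The macrophage list summed to 6.43 and 3.97 CPM in Vehicle and 16.2, 17.9 and 16.9 CPM in TC through Cd68 (1.92 ± 0.27 (SE), adjusted p = 0.000366), with Emr1 and Ptprc near 0. Their part in the carrier values was not tested. Of the import route 1 of 15 rose and 0 fell, the receptor Tomm20 (0.72 ± 0.11 (SE), adjusted p = 0.000628), beside 4.77% and 6.94% of all genes. Of 10 other transporters 0 were called and 2 had an unadjusted p under 0.05, beside 3103 of all 12786 genes.

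With etomoxir alone no carrier passed the test. Slc25a37 was at 50.4, 46.4 and 53.2 CPM in ETO beside 42.4 and 45.3 CPM in Vehicle, a small step without overlap (log2 fold change 0.19, adjusted p = 1). Slc25a35 was at 16.4, 17.2 and 18.8 CPM in ETO and 17.2 and 18.6 CPM in Vehicle, and these samples overlap. By edgeR's test 0 of 41 carriers were called in either direction, with 0.0156% of all genes higher and 0.00782% lower. DESeq2's test also called 0. Of the members 2 had an unadjusted p under 0.05, beside 283 of all 12786 genes. These 2 members included Slc25a43 (-1.34, adjusted p = 0.809), named after its values were seen. The log2 fold changes of the members ran from -1.34 to 0.99 with a median of -0.03, against 0.01 over all genes.

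Adding triacsin C to SR-3420 raised 2 of 41 carriers and lowered 2, beside 1.02% of all genes higher and 3.55% lower. Slc25a37 stood at 96.2 and 115 CPM in SR-3420 and 167, 168 and 174 CPM in TC+SR-3420, and Slc25a30 at 14.9 and 18.6 against 27.1, 25.3 and 28.1 CPM. Slc25a42 was at 86.9 and 50.4 CPM in SR-3420 and 32.7, 29.9 and 23.0 CPM in TC+SR-3420, and Slc25a23 at 51.9 and 34.2 against 25.2, 24.6 and 20.8 CPM. The groups do not overlap for these 4 genes, although the SR-3420 samples lie far apart for Slc25a42. The log2 fold change was 0.69 ± 0.14 (SE), adjusted p = 0.0134 for Slc25a37, 0.68 ± 0.17 (SE), adjusted p = 0.0392 for Slc25a30, -1.26 ± 0.29 (SE), adjusted p = 0.0244 for Slc25a42 and -0.87 ± 0.21 (SE), adjusted p = 0.0347 for Slc25a23. The members' median was -0.17 and that of all genes 0.02, and DESeq2's test called 6. An unadjusted p under 0.05 was found for 11 members, beside 2494 of all 12786 genes. All 4 calls were lost on leaving out at least 1 library. Slc25a37 was lost at adjusted p = 0.219 without SR-3420 replicate 1 and 0.0509 without TC+SR-3420 replicate 3, Slc25a42 at 0.408 without SR-3420 replicate 1, 0.0618 without TC+SR-3420 replicate 2 and 0.105 without TC+SR-3420 replicate 3, and Slc25a23 at 0.511 without SR-3420 replicate 1, 0.0733 without TC+SR-3420 replicate 1, 0.0784 without TC+SR-3420 replicate 2 and 0.132 without TC+SR-3420 replicate 3. Slc25a30 was lost at adjusted p = 0.435 without SR-3420 replicate 1, 0.0573 without SR-3420 replicate 3, 0.0945 without TC+SR-3420 replicate 1, 0.0827 without TC+SR-3420 replicate 2 and 0.122 without TC+SR-3420 replicate 3, and at 0.0839 with no filter on low counts. The count of called carriers was 0 without SR-3420 replicate 1 or TC+SR-3420 replicate 3, 1 without TC+SR-3420 replicate 2 and 2 without TC+SR-3420 replicate 1, by edgeR, and 0 with only the 5 samples of both groups in the model, where 10 had an unadjusted p under 0.05. Of 10 transporters outside the symbol rule 3 were lower and 0 higher, and of 11 adipocyte markers 5 were lower and 0 higher. Their part in the result for the carriers was not tested.

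Etomoxir with SR-3420 was also compared with SR-3420 alone. Slc25a37 was at 96.2 and 115 CPM in SR-3420 and 126, 165 and 129.8 CPM in ETO+SR-3420, and Slc25a35 at 5.72 and 7.05 against 5.34, 3.72 and 3.83 CPM. By edgeR's test on group means 0 of 41 members were higher or lower, beside 0% and 0.00782% of all genes, and DESeq2's test called 0. An unadjusted p under 0.05 was found for 13 members, beside 1279 of all 12786 genes. With the replicate block 12 members were called, beside 14.4% of all genes. The median log2 fold change of the members was -0.12 and of all genes -0.00.

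Whether the response to SR-3420 itself differed between backgrounds was tested as a difference of fold changes. For triacsin C against no inhibitor, the difference was called higher for 0 of 41 carriers and lower for 1, beside 1.24% of all genes higher and 1.27% lower. That carrier was Slc25a51, whose level with SR-3420 was 177 and 179.8 CPM against 154 and 160.2 CPM in Vehicle, and 163, 161 and 183 CPM in TC+SR-3420 against 243, 229 and 240.4 CPM in TC. It was slightly higher with SR-3420 in the first pair and lower in the second. The difference of log2 fold changes was -0.67 ± 0.16 (SE), adjusted p = 0.0423. The call was lost without each 1 of the 10 libraries in these 4 groups, at adjusted p = 0.117 without Vehicle replicate 2, 0.17 without Vehicle replicate 3, 0.155 without SR-3420 replicate 1, 0.0943 without SR-3420 replicate 3, 0.0848 without TC replicate 1, 0.0826 without TC replicate 2, 0.101 without TC replicate 3, 0.0928 without TC+SR-3420 replicate 1, 0.166 without TC+SR-3420 replicate 2 and 0.0566 without TC+SR-3420 replicate 3. It was also lost with DESeq2 size factors (adjusted p = 0.052), with no filter on low counts (0.198) and with only these 4 groups in the model (0.0672). Of the members 12 had an unadjusted p under 0.05, beside 2130 of all 12786 genes, and DESeq2's test called 4 members. The median difference was -0.28 for the members and -0.04 for all genes. Of 10 transporters outside the symbol rule 3 were lower and 0 higher, with a median of -0.72. Of 11 adipocyte markers 0 were called, with a median of -1.01, and 1 of 2 tested macrophage markers was lower. Their part in the result for the carriers was not tested.

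Slc25a37, which rose with SR-3420 in all 3 backgrounds, gave a difference of 0.34 ± 0.19 (SE), adjusted p = 0.404, and Slc25a22, whose SR-3420 samples were 174 and 127 CPM against 165 and 114 CPM in Vehicle, gave -1.41 ± 0.36 (SE), adjusted p = 0.0549. For etomoxir against no inhibitor 0 of 41 carriers were called in either direction by edgeR or by DESeq2, beside 0% and 0% of all genes by edgeR. An unadjusted p under 0.05 was found for 1 carrier, beside 307 of all 12786 genes. For triacsin C against etomoxir, whose arms share no samples, 0 of 41 were called by edgeR and 1 by DESeq2. By edgeR 1.52% of all genes were higher and 0.774% lower. An unadjusted p under 0.05 was found for 8 members, beside 1596 of all 12786 genes. With the replicate block 4 members were called, beside 8.25% of all genes. So the 17 falls with triacsin C and the 7 with etomoxir are counts within each background, and edgeR's test of their difference on group means passed for 0 members.

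Paralogs with the same cargo often differed in level, compared here per kilobase of counted length over all 16 samples. The glutamate carriers ran at 24.6 to 79.7 CPM per kb for Slc25a22 and 0.258 to 1.00 for Slc25a18, the aspartate/glutamate carriers at 6.01 to 11.3 CPM per kb for Slc25a12 and 0.756 to 2.11 for Slc25a13, and the ornithine carriers at 7.37 to 15.4 CPM per kb for Slc25a15 and 0.175 to 2.80 for Slc25a2. In each of these pairs the first gene was above the second in every sample. The glutathione carriers ran at 91.5 to 236 CPM per kb for Slc25a39 and 2.04 to 9.58 for Slc25a40, and the pyrimidine nucleotide carriers at 16.4 to 37.1 CPM per kb for Slc25a33 and 4.35 to 14.9 for Slc25a36. These ranges do not overlap either. The carriers linked to coenzyme A ran at 11.4 to 56.0 CPM per kb for Slc25a16 and 7.25 to 32.8 for Slc25a42, and Slc25a16 was above Slc25a42 in 14 of the 16 samples, all but SR-3420 replicate 1 and TC replicate 2.

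The levels of the 2 mitoferrins overlapped with SR-3420 under the inhibitors. In Vehicle, Slc25a28 (mitoferrin-2) was at 39.5 and 28.7 CPM per kb and Slc25a37 at 10.2 and 10.9, so mitoferrin-2 was the more abundant. In TC+SR-3420 Slc25a28 was at 53.6, 43.2 and 35.9 and Slc25a37 at 40.1, 40.4 and 41.7 CPM per kb, and in ETO+SR-3420 they were at 47.3, 38.9 and 32.6 and 30.2, 39.7 and 31.2. The levels of the mitoferrins overlapped in both of these groups. In SR-3420 without inhibitor Slc25a28, at 56.4 and 43.6 CPM per kb, was above Slc25a37, at 23.1 and 27.6. The difference in this respect between groups was not tested. Slc25a28 itself gave log2 fold changes of 0.55, 0.02 and 0.27 with SR-3420 in the absence of inhibitor, with TC and with ETO (adjusted p = 0.242, 0.951 and 0.39).

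The calcium-regulated ATP-Mg/phosphate carriers went different ways within SR-3420 responses. Slc25a25 rose without inhibitor and with etomoxir, and Slc25a23 fell with triacsin C and with etomoxir, as given above. Slc25a24 was at 29.5, 26.5 and 32.8 CPM in TC and 37.4, 38.6 and 64.8 CPM in TC+SR-3420, and its log2 fold changes were 0.18, 0.66 and 0.54 in the 3 backgrounds (adjusted p = 0.817, 0.0925 and 0.2). Per kilobase, Slc25a25 ran from 17.3 to 51.4 and Slc25a23 from 5.65 to 24.6 CPM, and in Vehicle they were at 21.1 and 17.3 and 24.6 and 18.8. Slc25a23 lies 2057 bases from Slc25a41, a further ATP-Mg/phosphate carrier that was almost silent.

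Other pairs gave few calls. For the aspartate/glutamate carriers, Slc25a12 rose with SR-3420 under triacsin C while Slc25a13 gave 0.10, 0.34 and 0.34 in the 3 backgrounds (adjusted p = 0.93, 0.479 and 0.52). Slc25a18 beside Slc25a22 gave 0.23, -0.49 and -0.52, from 6 to 20 counts per sample. Slc25a39 gave 0.19, -0.53 and -0.25, and Slc25a40 -0.57, -0.02 and -0.21, without a call for either glutathione carrier. Slc25a15 gave -0.27, -0.32 and -0.37 without a call. Its paralog Slc25a2 fell under triacsin C (-1.79 ± 0.53 (SE), adjusted p = 0.0179) on 4 to 39 counts per sample, a call lost at adjusted p = 0.055 without TC replicate 1, 0.066 without TC+SR-3420 replicate 1 and 0.0667 without TC+SR-3420 replicate 2.

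The partners that overlap Slc25a35 and Slc25a25 have values of their own. Rangrf was at no more than 3.95 CPM in any sample, and its log2 fold changes with SR-3420 were -0.42, -0.72 and -0.74 in the 3 backgrounds, against -1.49, -1.41 and -2.01 for Slc25a35. Naif1 gave 0.18, -0.79 and -0.64, against 0.98, 0.07 and 0.79 for Slc25a25. How many reads each gene of a pair lent the other was not tested.

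Of the 41 tested members, 23 were called by edgeR's test on group means in at least 1 of the 10 comparisons and 18 in none, namely Slc25a13, Slc25a14, Slc25a15, Slc25a17, Slc25a18, Slc25a21, Slc25a24, Slc25a26, Slc25a28, Slc25a32, Slc25a36, Slc25a38, Slc25a39, Slc25a40, Slc25a45, Slc25a46, Slc25a48 and Slc25a53. Of all 12786 genes, 46.0% were called in at least 1 of the 10. In TC+SR-3420 against TC the log2 fold changes of these 18 ran from -0.67 to 0.66 with a median of 0.00, in ETO+SR-3420 against ETO from -0.79 to 0.54, and in SR-3420 against Vehicle from -1.65 to 1.41. Both ends of this last range rest on few counts, Slc25a45 at -1.65 on 6 to 25 per sample and Slc25a48 at 1.41 on 2 to 24. The 18 hold the glycine carrier Slc25a38, which serves haem synthesis and lay between -0.49 and 0.11 over the 10 comparisons. They also hold the S-adenosylmethionine carrier Slc25a26, between -0.77 and 0.67.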

How the data were processed

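RNA-seq counts per gene were used as deposited by the authors, whose submission notes give STAR 2.4.2a alignment to mm9 and HOMER tag directories that keep 1 read per position and length, which limits short, highly expressed genes. Strand use in counting is not stated, so antisense and overlapping genes cannot be told apart. Total counts per sample ran from 9452861 to 25670624. All 16 samples were fitted in 1 model of 6 group means with edgeR 4.0.16 in R 4.3.3 (TMM, filterByExpr, quasi-likelihood F-test, 2-sided), with Benjamini-Hochberg adjustment over 12786 genes and calls at an adjusted p under 0.05. Intervals are 95%. Tables and plots used Python 3.11.15, pandas 2.3.3 and matplotlib 3.10.9. Members, gene lists and motifs were chosen with earlier results of these data known. Named members were Slc25a3, Slc25a4 and Slc25a5, a fixed set of paralog pairs, and in each comparison up to 3 called members per direction with the largest change, no overlap between groups (not asked of differences of responses) and a mean count of at least 50. Alternatives were DESeq2 size factors, DESeq2 1.42.0's Wald test, no filter, at least 10 counts in every sample, a log2 fold change of at least 1, replicate numbers as a block (replicate block), a model of the compared groups alone, and leaving out each sample. A group left with 1 sample was taken to vary like the others. Shares of all genes are those called by edgeR. Counts of carriers by DESeq2's test are given without such a share. The same holds for DESeq2 size factors, no filter, the log2 fold change rule, the compared groups alone and fits that leave out 1 library. These counts therefore cannot be set against all genes. The values of 1 member, which the counts of members include, are not reported here.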

Additional observations from a re-analysis of the deposited data

Results flagged for a closer look

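The NAD+ carrier Slc25a51 responded to SR-3420 differently under triacsin C than without an inhibitor, by edgeR's test of the difference itself. The difference of log2 fold changes was -0.67 (adjusted p = 0.0423). Over 16 alternatives it ran from -0.73 to -0.57. The call was lost in 13 of them and held in 3, the replicate block among these (adjusted p = 0.00727). Without any 1 of the 10 libraries of these 4 groups the adjusted p lay between 0.0566 (without TC+SR-3420 replicate 3) and 0.17 (without Vehicle replicate 3), so the call was lost in all 10 of these fits.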

How the results depend on the processing

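Of the values checked for named carriers, 176 kept direction and side of the threshold over the alternatives that keep all samples, 18 kept direction only and 4 turned sign. Over fits that leave out 1 library these numbers were 121, 53 and 5. Asking for a log2 fold change of at least 1 gave 2 called carriers in SR-3420 against Vehicle, 10 in TC+SR-3420 against TC, 6 in ETO+SR-3420 against ETO, 1 in TC against Vehicle, 1 in TC+SR-3420 against SR-3420 and 0 for the response with TC minus that without inhibitor, a count that was also 0 with DESeq2 size factors and with no filter. With only the compared groups the count was 0 in SR-3420 against Vehicle, 4 in ETO+SR-3420 against ETO and 0 in TC+SR-3420 against SR-3420. DESeq2's Wald test gave 11 in TC against Vehicle, 4 for the response with TC minus none and 1 for the response with TC minus that with ETO. With the replicate block the count was 8 in SR-3420 against Vehicle (19.1% of all genes called), 23 in TC+SR-3420 against TC (56.2%), 20 in ETO+SR-3420 against ETO (45.2%), 12 in TC against Vehicle (24.0%), 12 in TC+SR-3420 against SR-3420 (23.5%), 12 in ETO+SR-3420 against SR-3420 (14.4%), 9 for the response with TC minus none (13.1%) and 4 for TC minus ETO (8.25%), and the log2 fold change of Slc25a4 in SR-3420 against Vehicle, not called, was 0.00876. Of the 18 carriers called in no comparison, 9 were called in at least 1 with the block. As the block called up to 56.2% of all genes in a comparison, this count is not read as a result about the carriers. Deviations from the group means of samples with the same replicate number had a mean correlation of 0.41 over 35 pairs, 27 of them over 0.1 and the lowest at -0.29, against -0.20 over 71 pairs of different numbers, and the labels do not say that the numbers pair samples. Leaving out 1 library gave 2 to 3 calls in SR-3420 against Vehicle, 15 to 18 in TC+SR-3420 against TC, 7 to 13 in ETO+SR-3420 against ETO, 3 to 4 in TC against Vehicle, 0 to 3 in TC+SR-3420 against SR-3420 and 0 for the response with TC minus none. In SR-3420 against Vehicle, uncalled log2 fold changes near 0 turned sign: Slc25a3 was at -0.00757 with DESeq2 size factors, -0.0185 with only the compared groups and -0.00773 by DESeq2. Without 1 library Slc25a3 ran from -0.125 to 0.162, Slc25a4 from -0.0757 to 0.0513 and Slc25a5 from -0.241 to 0.0485. The cause was not tested. DESeq2 size factors moved the median of all genes by at most 0.04 on the log2 scale. Apart from those with the replicate block, the counts of called carriers in this paragraph stand without the share of all genes. Whether they moved more than the calls among all genes was not tested.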
